A study of Mus musculus with 11 samples.

Results

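The complement genes of the mouse heart were followed by RNA sequencing in 11 hearts, 3 from sham-operated mice and 8 from mice with myocardial infarction (MI) after ligation of the left anterior descending artery. The group comprised 35 genes out of 55421 genes in the count table. Its list was drawn up by name and function, with earlier results of these data known. It held 8 genes of the classical pathway, 5 of the lectin pathway, C3 with 3 genes of the alternative pathway, and 3 of the terminal pathway. The rest were 6 receptors, 4 regulators in plasma, 4 regulators on membranes and C1qbp, a protein that binds C1q. All mice were female, of the C57BL/6J strain and 8 weeks old. Of the mice with MI, 4 received the hydroxamate ADAM10 inhibitor GI254023X (A10i, 100 mg/kg) and 4 received DMSO, each from an osmotic minipump, and their tissue, labelled as infarct border zone, was by the study's methods the infarct together with its border zone, taken 3 days after ligation. The 3 sham hearts gave healthy tissue and are labelled with DMSO. The mouse is the replicate, and the libraries are named Sham S1, S2 and S3, DMSO A105, A127, A128 and A129, and A10i A116, A117, A119 and A120. Values per mouse are always given in that order.

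Complement is a chain of plasma proteins that tags damaged cells and microbes for removal. It starts from C1q with its proteases C1r and C1s (classical pathway), from sugar-binding collectins and ficolins with MASP proteases (lectin pathway), or from C3 itself with factors B, D and P (alternative pathway). All routes cut C3, release the attractants C3a and C5a, coat targets with C3 fragments, and can end in a membrane pore of C5b to C9. Much of the plasma pool is made in liver, whereas macrophages make C1q and fibroblasts and other stromal cells make C3, C1r and C1s within tissues, and injured heart muscle activates the cascade.

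Totals ran from 21702623 to 29511768 counts per library, so a gene at a normalized count of 1000 carries little counting error, whereas Cfb or Cfi rested on a handful of reads in sham hearts. Heart muscle markers were abundant in sham tissue, where 9 cardiomyocyte genes summed to 77824 to 78536 CPM (reads scaled to library size), against 38574 to 56075 in DMSO and 44676 to 61218 in A10i mice. In such whole tissue, fewer cells of a type and less RNA per cell cannot be told apart. The infarcted mice varied more than the sham mice. DMSO A129 was highest of its group for Itgam, C5ar1, C3ar1, Cfp and the macrophage marker Adgre1, A10i A116 was highest of its group for the 3 C1q chains and the same 5 genes, and A10i A117 was highest of its group for C3, C4b, C1ra, C1s1, Serping1 and Cfd.

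Several members share exon bases with other genes of the annotation, which bears on their counts. The counted exons of Cfb (chr17:34856374-34862518, mm10, minus strand) overlapped Gm20547 on the same strand over 79.5% of their length, those of C2 (chr17:34862604-34898265, minus strand) overlapped Gm20547 and Zbtb12 over 46.9%, and those of Itgam (chr7:128062640-128118491, plus strand) overlapped Gm49368 on the same strand over 68.7%. Masp2 (chr4:148602554-148615499, plus strand) shared 54.9% with Tardbp on the opposite strand. C1s1 and Cd46 shared 18.4% and 16.4% with genes of the opposite strand. The strand and overlap settings of the counting are not given in the sources used here, so the levels of these genes are uncertain. So are those of pairs of related genes, such as C4b and C4a, C1ra and C1rb, C1s1 and C1s2, Cd55 and Cd55b, and Cd59a and Cd59b.

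Upstream sequences of the complement genes were searched for 3 short motifs. RefSeq windows (GRCm38.p6) were available for 26 of the 35 members and not for C1qa, C2, C4b, Cfb, Cfi, Masp1, Colec12, Serping1 and Clu. The 250 bases before the annotated start were searched on both strands for GAGGAA, the core of sites for the myeloid factor PU.1, for GAAANNGAA, an interferon-type element, and for TTCNNNGAA, a STAT-type element that reads the same on both strands. A stretch can match more than 1 of these. The windows of C1qb, Itgam and Vsig4 are printed because these genes rose after MI, hold GAGGAA, and have windows that lie wholly outside their counted exons. Capitals mark GAGGAA or its reverse complement.
C1qb (chr4:136886201-136886450, minus strand): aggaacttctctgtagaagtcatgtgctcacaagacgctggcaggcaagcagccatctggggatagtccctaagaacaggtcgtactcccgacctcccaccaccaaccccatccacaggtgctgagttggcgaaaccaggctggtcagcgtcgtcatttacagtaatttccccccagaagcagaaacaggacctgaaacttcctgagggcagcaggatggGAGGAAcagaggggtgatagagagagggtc
Itgam (chr7:128062390-128062639, plus strand): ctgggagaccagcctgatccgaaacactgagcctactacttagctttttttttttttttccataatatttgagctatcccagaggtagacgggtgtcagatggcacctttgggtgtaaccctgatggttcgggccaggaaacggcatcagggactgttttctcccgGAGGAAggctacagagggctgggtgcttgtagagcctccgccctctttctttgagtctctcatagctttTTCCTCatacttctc
Vsig4 (chrX:96293439-96293688, minus strand): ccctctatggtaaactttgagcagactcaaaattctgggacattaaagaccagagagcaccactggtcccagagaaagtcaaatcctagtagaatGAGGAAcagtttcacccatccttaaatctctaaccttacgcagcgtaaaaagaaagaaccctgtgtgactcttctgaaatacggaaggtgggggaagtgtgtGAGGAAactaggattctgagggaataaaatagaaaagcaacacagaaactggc

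GAGGAA was found in 6 of the 26 members (23.1%), namely C1qb, C1qc, Cd59a, Fcna, Itgam and Vsig4, beside 23.3% of 32851 windows in the whole table. The interferon-type letters stood in 3 members (11.5%), C5ar1, Cd59a and Colec11, beside 7.13% of all windows. The STAT-type letters also stood in 3 (11.5%), C7, Masp2 and Colec11, beside 7.02%. The share of members with GAGGAA was thus close to that of all windows, and 3 genes are too few to read a share from. A match describes letters and not a bound site.

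Which complement genes the heart expresses at all was asked first, with levels per length (CPM per kilobase of exon, scaled by TMM). In sham hearts the level of Clu, the extracellular chaperone clusterin that blocks pore assembly, stood far above the rest at 134 ± 1.02 (SD, n = 3). Next came the pore inhibitor Cd59a at 44.9 ± 1.06, C1qb at 39.3 ± 3.95, C1qa at 38.8 ± 2.58, C1qbp at 36.3 ± 0.772, the C1 inhibitor Serping1 at 35.5 ± 3.04 and C3 at 31.7 ± 2.93. C1qb and C1qa were not separable beyond their spread, nor were Serping1 and C1qbp.

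At the low end of sham hearts stood factor I, Cfi, at 0.0363 ± 0.00288, C6 at 0.0311 ± 0.0194 and factor B, Cfb, at 0.02815 ± 0.0128, which overlapped each other in part. Hc, which encodes C5, had 0 counts in all 3 sham hearts and a normalized count of at most 2 in DMSO mice and 3.03 to 4.94 in A10i mice. After MI the order shifted. In DMSO mice Clu led at 278 ± 18.1 (n = 4), followed by C1qb at 73.2 ± 18.3, C1qa at 66.5 ± 10.8, C3 at 48.9 ± 13.5 and Serping1 at 47.4 ± 7.27, and neighbours in this order below Clu overlapped. In A10i mice Clu stood at 311 ± 4.497, C1qb at 104 ± 25.1, C1qa at 94.3 ± 15.1, C3 at 93.6 ± 28.2 and Serping1 at 64.3 ± 11.6.

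**Figure D1:**
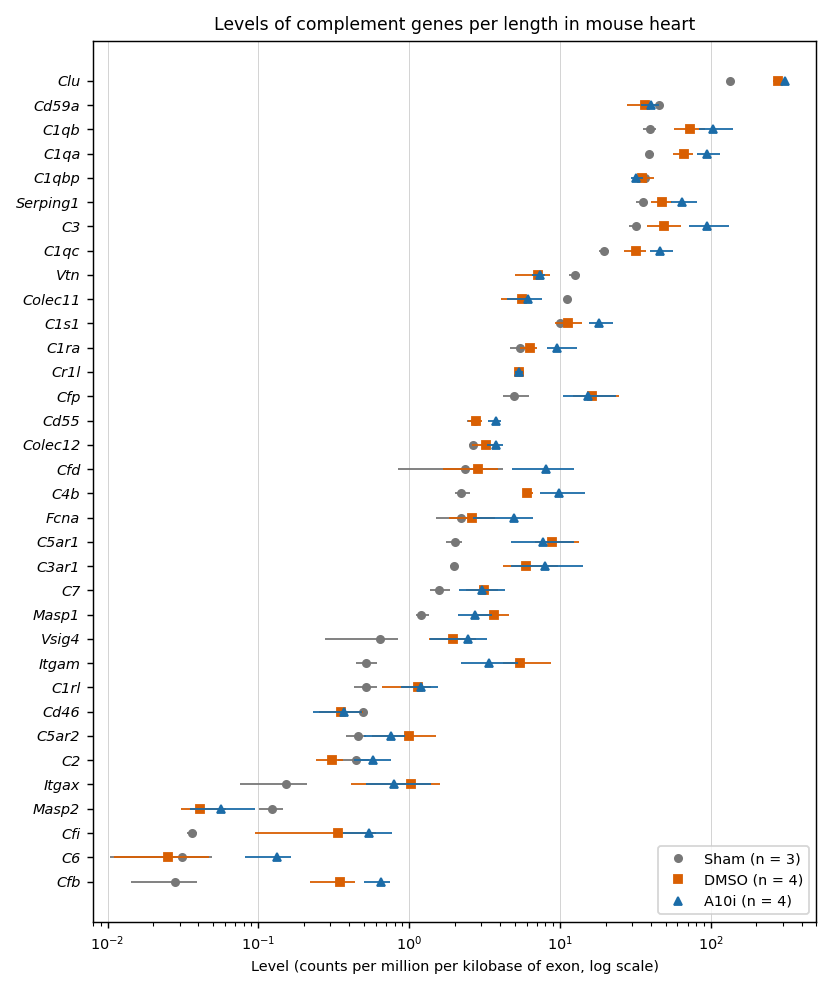
Level per length (CPM per kilobase of exon, log axis) of 34 complement genes, ordered by the sham mean. Symbols are group means and lines run from the lowest to the highest mouse (lines are clipped at the left edge). Hc is left out as its sham level is 0, and Clu tops the order in every group.

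The C1q chains kept nearly fixed proportions. C1q is built from equal numbers of A, B and C chains. The level of C1qc per length was 0.464 to 0.521 of that of C1qa in all 11 hearts, and C1qb was 0.954 to 1.23 of C1qa. C1s1 was 1.59 to 2.09 times C1ra per length, with means of 1.86 ± 0.153 in sham, 1.79 ± 0.163 with DMSO and 1.91 ± 0.148 with A10i. These ratios overlapped between all 3 groups.

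The change with MI was asked separately in each treatment, against the same 3 sham hearts, so both comparisons share those libraries. Of the 35 genes, 32 passed the filter on low counts in DMSO against sham (C6, Hc and Masp2 did not), and 15 rose and 2 fell at an adjusted p under 0.01 in edgeR's quasi-likelihood test, with the Benjamini-Hochberg correction taken over all genes. Over all 17117 genes tested, 12.9% rose and 9.6% fell. In A10i against sham 33 passed (Hc and Masp2 did not), and 21 rose and 2 fell, beside 13.7% and 9.11% of 16971 genes. The median log2 fold change of the genes tested was 0.74 in DMSO and 1.22 in A10i mice, where the median of all genes was 0.00 and -0.01. These counts lean on the 3 sham hearts. Without S1, S2 or S3, the 15 became 7, 6 and 7, and the 21 became 12, 14 and 16. Calls over all genes dropped too in the same fits. Those that rose went from 2215 to 977, 922 and 939 in DMSO mice, and from 2333 to 1077, 1117 and 1062 in A10i mice. In DMSO mice C4b, Cfb, C5ar1, Masp1, Clu and Itgam rose and Colec11 fell in all 3 of these fits, C1qa, Cfp and Vtn passed in 1 of them, and C1qb, C1qc, C3ar1, C7, Itgax, Vsig4 and Cfi in none. In A10i mice the 3 C1q chains, C1s1, C3, C4b, Cfb, Cfi, Serping1, Masp1, Clu and Itgam rose and Vtn fell in all 3, whereas C1ra, Cd55, Itgax, C3ar1, Vsig4 and Colec11 passed in none. Of the genes that rose with all sham hearts, 14 were shared, C7 passed in DMSO mice alone, and C1ra, C1rl, C1s1, C3, Cd55, Colec12 and Serping1 passed in A10i mice alone. Passing in 1 treatment alone does not show a difference between treatments, which has its own test further on.

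**Figure D2:**
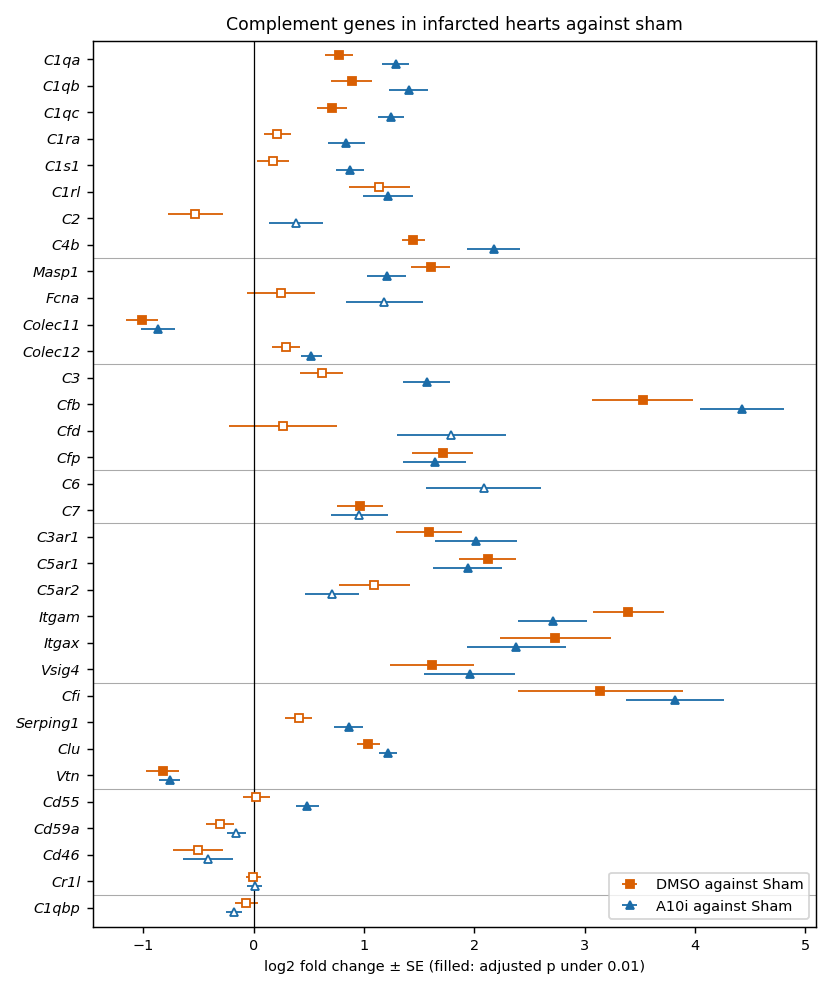
log2 fold change against sham (± SE) of the 33 complement genes tested, for DMSO (orange squares) and A10i (blue triangles) mice, with lines between the functional classes. Filled symbols passed an adjusted p of 0.01. Cfb lies farthest to the right in both treatments, and Colec11 and Vtn are the filled symbols to the left of 0.

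In the classical pathway, 4 of 8 genes rose in DMSO and 7 of 8 in A10i mice against sham. C1qa, the A chain of the recognition molecule (chr4:136895917-136898803, minus strand), had normalized counts (scaled to the mean library) of 1109, 982 and 1002 in sham, 1483, 2014, 1558 and 2015 in DMSO, and 3039, 2249.7, 2151 and 2589.8 in A10i mice. The 3 groups did not overlap, and C1qa rose by a log2 fold change of 0.77 ± 0.13 (SE, adjusted p = 0.00155) in DMSO and 1.29 ± 0.12 (adjusted p = 0.000176) in A10i mice. C1qb, the B chain, had 1199.6, 980.4 and 1101 in sham, 1620.4, 2399, 1575 and 2548 in DMSO, and 3899, 2540.1, 2332 and 2769.5 in A10i mice, with changes of 0.89 ± 0.19 and 1.40 ± 0.17. C1qc, the C chain, had 1037, 887 and 969.7, then 1317, 1833, 1372 and 1812, then 2757, 2165, 1944 and 2231, with changes of 0.71 ± 0.14 and 1.24 ± 0.12. Infarcted mice lay above every sham mouse for all 3 chains, and A10i mice lay above every DMSO mouse for C1qa and C1qc but not C1qb.

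The proteases that C1q carries changed less. C1ra, which encodes C1r (chr6:124512405-124523443, plus strand), had 439.6, 438 and 354 in sham, 412, 539, 518 and 447 in DMSO, and 641, 979.7, 621 and 687 in A10i mice. C1s1, which encodes C1s (chr6:124530345-124542359, minus strand), had 790.1, 855 and 749.7, then 764, 1117, 1004 and 745, then 1252, 1789, 1280.2 and 1506. For both genes the DMSO mice overlapped the sham mice, and their log2 fold changes of 0.22 ± 0.12 and 0.18 ± 0.14 did not pass. In A10i mice every value lay above those of both other groups, and both rose against sham, by 0.84 ± 0.17 (adjusted p = 0.00455) for C1ra and 0.87 ± 0.13 (adjusted p = 0.00093) for C1s1. C1rl, a C1r-like protease next to them on chromosome 6, had 38.9, 33.2 and 47.3 in sham, 50.9, 95.4, 108 and 97.9 in DMSO, and 89.9, 118.5, 67.7 and 92.7 in A10i mice. It rose in A10i mice by 1.22 ± 0.23 (adjusted p = 0.00261) and just missed the threshold in DMSO mice at 1.14 ± 0.28 (adjusted p = 0.0102), while the infarcted groups overlapped.

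C4b and C2 form the classical and lectin C3 convertase. C4b (chr17:34728380-34743882, minus strand) had 367, 292 and 301 in sham, 853, 853, 848 and 962 in DMSO, and 1250.1, 2137, 1064 and 1309.8 in A10i mice. It had the smallest adjusted p of the group in DMSO against sham (4.17e-05, log2 fold change 1.45 ± 0.11), rose by 2.18 ± 0.24 in A10i mice (adjusted p = 0.000479), and no group overlapped another. C2 behaved otherwise, with 53.4, 33.2 and 45.2 in sham, 27.1, 36.1, 34.3 and 24.0 in DMSO, and 56.6, 75.1, 42.3 and 53.8 in A10i mice. Its log2 fold changes against sham, -0.53 ± 0.25 in DMSO and 0.39 ± 0.25 in A10i mice, did not pass.

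In the lectin pathway, Masp1 rose and Colec11 fell in both treatments. Masp1 (chr16:23449417-23520815, minus strand), the locus of MASP-1 and its splice forms, which gene counts do not separate, had 279, 279 and 339 in sham, 901, 665, 1157 and 939 in DMSO, and 533, 892, 601 and 732 in A10i mice. It rose by 1.60 ± 0.18 (adjusted p = 0.000322) in DMSO and 1.21 ± 0.18 (adjusted p = 0.00115) in A10i mice, which overlapped each other. Colec11, a soluble collectin (chr12:28594173-28623377, minus strand), had 459.6, 449.9 and 480.2 in sham, 266, 227, 263 and 168 in DMSO, and 184, 235, 315 and 283 in A10i mice, and fell by 1.01 and 0.86 on the log2 scale (SE 0.15 each, adjusted p = 0.000822 and 0.00214). Every infarcted mouse lay below every sham mouse.

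Colec12, a membrane collectin and scavenger receptor, had 581, 621 and 558 in sham, 581, 753, 703 and 859 in DMSO, and 810.5, 940.2, 736 and 880.4 in A10i mice. The A10i mice lay above all sham mice and rose by 0.52 ± 0.09 (adjusted p = 0.00195), whereas the DMSO mice overlapped the sham mice (0.30 ± 0.13, adjusted p = 0.0921). The ficolin Fcna ran from 53.1 to 107 in sham, 64.9 to 131 in DMSO and 93.1 to 232 in A10i mice without passing against sham. Masp2 held 8.54 to 12.2 in sham and 2.58 to 8.01 in infarcted mice and was too low to be tested.

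Among C3 and the genes of the alternative pathway, C3 had the highest level and factor B, Cfb, the largest change against sham. C3 (chr17:57203970-57228136, minus strand), on which all pathways converge, had 4513, 3749.9 and 4231 in sham, 4922, 8376, 7505 and 4939 in DMSO, and 9707, 17410.1, 9421 and 12709.6 in A10i mice. All DMSO mice lay above the sham mice and all A10i mice above the DMSO mice, yet C3 passed only in A10i against sham (1.57 ± 0.21, adjusted p = 0.000903), with 0.62 ± 0.19 (adjusted p = 0.0318) in DMSO mice. Cfb, which supplies the protease of the alternative convertase, had 2.23, 2.85 and 1.03 in sham, 23.8, 28.4, 31.7 and 15.98 in DMSO, and 49.5, 47.4, 36.0 and 53.8 in A10i mice. No Cfb group overlapped another, and since the sham hearts held only 6 Cfb reads in all, its rise is best given as a ratio of summed counts with an exact 95% interval for counting error, 12.4 (5.50 to 34.5) in DMSO and 22.7 (10.2 to 62.7) in A10i mice. The adjusted p of Cfb was 0.000522 and 8.9e-05.

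Cfp, properdin, which stabilizes that convertase and is made by leukocytes, had 193, 186 and 277 in sham, 544, 673, 570.5 and 1091 in DMSO, and 1047, 607, 466 and 596 in A10i mice. It rose by 1.71 ± 0.27 (adjusted p = 0.00178) and 1.64 ± 0.29 (adjusted p = 0.00285), with the infarcted groups overlapping. Cfd, factor D or adipsin, which cuts factor B and is known as a product of fat cells, had 46.7, 19.9 and 98.7 in sham, 81.2, 55.0, 39.5 and 91.9 in DMSO, and 157, 289, 113 and 199 in A10i mice. The DMSO mice overlapped the sham mice, every A10i mouse lay above all others, and Cfd did not pass against sham in either treatment (adjusted p = 0.688 and 0.0201).

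Of the 3 terminal pathway members, C7 was the 1 expressed at more than a few reads in every heart. C7 (chr15:4988762-5063740, minus strand) had 102, 94.0 and 127.5 in sham, 265, 174, 249.6 and 162 in DMSO, and 156, 297, 147 and 237 in A10i mice. All infarcted mice lay above the sham mice, with a rise of 0.97 ± 0.21 (adjusted p = 0.00557) in DMSO and a change of 0.96 ± 0.26 (adjusted p = 0.0172) in A10i mice. C6 had 0.949 to 4.45 in sham, 0.999 to 4.29 in DMSO and 7.41 to 14.9 in A10i mice, so its A10i mice lay above all others at very low counts. The ratio of its summed counts in A10i against sham was 4.40 (exact 95% interval 2.06 to 10.8, counting error only), and its adjusted p was 0.0103.

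The receptors rose together: 5 of 6 passed in each treatment. Itgam, the alpha chain of complement receptor 3 on neutrophils, monocytes and macrophages, had 79.0, 56.9 and 63.8 in sham, 620.2, 536, 534 and 1117 in DMSO, and 674, 404, 281 and 371 in A10i mice. It rose by 3.39 ± 0.32 (adjusted p = 0.0002) and 2.71 ± 0.32 (adjusted p = 0.000542), and the infarcted groups overlapped each other but not sham. Itgax, the alpha chain of complement receptor 4, had 21.1, 25.6 and 9.26 in sham, 122, 137, 50.6 and 196 in DMSO, and 171, 63.2, 75.1 and 82.4 in A10i mice, and rose by 2.73 ± 0.50 and 2.38 ± 0.45 (adjusted p = 0.00319 and 0.00362).

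C5ar1, the C5a receptor, had 135, 115.8 and 147 in sham, 468, 518, 451 and 879.7 in DMSO, and 807, 456, 312 and 449 in A10i mice, and rose by 2.12 ± 0.26 and 1.94 ± 0.31 (adjusted p = 0.000543 and 0.00196). C3ar1, the C3a receptor, had 233, 204 and 213, then 478, 614, 458 and 1069, then 1559, 707, 523 and 696, and rose by 1.59 ± 0.30 and 2.02 ± 0.37 (adjusted p = 0.00359 and 0.00405). For both receptors all infarcted mice lay above all sham mice, and the 2 highest mice were DMSO A129 and A10i A116. Vsig4, a macrophage receptor for C3 fragments, had 30.0, 10.4 and 31.9 in sham, 68.2, 51.6, 106 and 70.9 in DMSO, and 79.8, 123, 51.8 and 115.6 in A10i mice. It rose by 1.62 ± 0.38 and 1.957 ± 0.41 (adjusted p = 0.00842 and 0.00558) without overlap with sham. C5ar2, the decoy-type C5a receptor, held 34.5 to 47.3 in sham, 51.5 to 138 in DMSO and 45.5 to 85.9 in A10i mice and did not pass (adjusted p = 0.0225 and 0.04).

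Leukocyte markers moved in the same comparisons. The summed level of 12 macrophage markers was 416 to 430 CPM in sham, 705 to 1210 in DMSO and 815 to 1593 in A10i mice, with 8 of 12 and 10 of 12 rising. That of 15 neutrophil markers was 5.98 to 8.01, 118 to 234 and 32.7 to 83.5 CPM, with Ly6g at 0 in all sham hearts. Their part in the rise of the receptors and C1q was not tested.

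The regulators split into risers and fallers. Clu (chr14:65968483-65981547, plus strand) had 11862, 11838 and 11696 in sham, 23844, 26506, 22711 and 24554 in DMSO, and 27868, 26921, 27223 and 27361 in A10i mice. The A10i mice were within a narrow band just above the DMSO mice, and Clu rose by 1.04 ± 0.10 (adjusted p = 0.000159) and 1.22 ± 0.08 (adjusted p = 5.23e-05), the smallest adjusted p of the group in A10i mice. Vtn, vitronectin, which keeps the pore complex soluble, had 704, 662 and 594 in sham, 378, 442, 402 and 263 in DMSO, and 338, 384, 406 and 409.9 in A10i mice, and fell by 0.83 and 0.76 on the log2 scale (SE 0.15 and 0.09, adjusted p = 0.00272 and 0.000365). Both infarcted groups lay below sham and overlapped each other.

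Serping1, the C1 inhibitor, had 2210.0, 1902 and 2220.2 in sham, 2501, 3106, 3266 and 2397 in DMSO, and 3219.7, 4808, 3512 and 3755 in A10i mice. It rose in A10i mice by 0.86 ± 0.13 (adjusted p = 0.00121), with 0.41 ± 0.12 (adjusted p = 0.0232) in DMSO mice. Cfi, which cuts C3b and C4b, had 2.23, 1.90 and 2.06 in sham, 5.41, 25.8, 11.2 and 34.0 in DMSO, and 27.3, 43.5, 30.7 and 20.6 in A10i mice. With 6 Cfi reads in all sham hearts, its ratio of summed counts was 9.39 (exact 95% interval 4.14 to 26.3) in DMSO and 15.1 (6.71 to 41.9) in A10i mice. These intervals cover counting error only and not the spread between mice. The adjusted p of Cfi was 0.00901 and 0.000307, and DMSO A105 stood nearest to sham.

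On membranes, Cd55, which speeds the decay of C3 convertases, had 348, 298 and 362 in sham, 305, 376, 313 and 379 in DMSO, and 465, 415, 497 and 503 in A10i mice. Sham and DMSO mice overlapped, every A10i mouse lay above both, and Cd55 rose in A10i against sham by 0.49 ± 0.10 (adjusted p = 0.00415). The other 3 did not pass in either treatment. Cd59a ran from 2043 to 2137 in sham, 1278 to 1983 in DMSO and 1589 to 2099.8 in A10i mice, Cd46 from 85.7 to 103, 48.9 to 96.1 and 44.7 to 95.2, and Cr1l, the mouse regulator Crry, from 1349 to 1465, 1332 to 1466 and 1325 to 1513. C1qbp, a mitochondrial protein that binds C1q, held 2589 to 2690.1 in sham, 2263 to 3041 in DMSO and 2145 to 2542 in A10i mice and did not pass.

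A10i was then compared directly with DMSO in infarcted mice, the comparison on which the study turns. In the edgeR fit of these groups alone, with the filter on low counts, no gene of the whole table passed an adjusted p of 0.01. That is 0% of 16792 genes in each direction, and the smallest adjusted p among the 32 complement genes tested was 0.107. At an unadjusted p under 0.05, 13 of the 32 were higher and 0 lower in A10i mice, beside 7.1% of all genes tested higher and 6.73% lower. In 11 of the 32 tested every A10i mouse lay above every DMSO mouse, and in 0 below, beside 3.78% and 4.4% of all genes tested. The members and the marker lists below were chosen with earlier results of these data known. Their shares beside those of all genes are thus descriptive and no independent test. By DESeq2 3 passed 0.01 in the higher direction (Cfd, C3 and C1s1) and 0 in the lower. Of the 31662 genes with any read in these mice, DESeq2 called 104 higher (0.328%) and 123 lower. That total includes genes with too few reads to be called, so its share cannot be set against those of the 16792 filtered genes. By edgeR 18 genes were called higher and 25 lower without the filter on low counts. In the joint fit of all 11 libraries 2 were higher and 9 lower. No complement member was among them. Whether any gene of the whole table passes thus depends on the test, the filter and the libraries fitted. The paper, whose own testing also relied on DESeq2, reports genes changed by A10i in both directions at that threshold. The 13 were, in order of p, Cfd, C1s1, Cd55, C1ra, C2, C3, C1qc, C4b, Cfb, C1qa, Serping1, Fcna and C1qb.

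**Figure D3:**
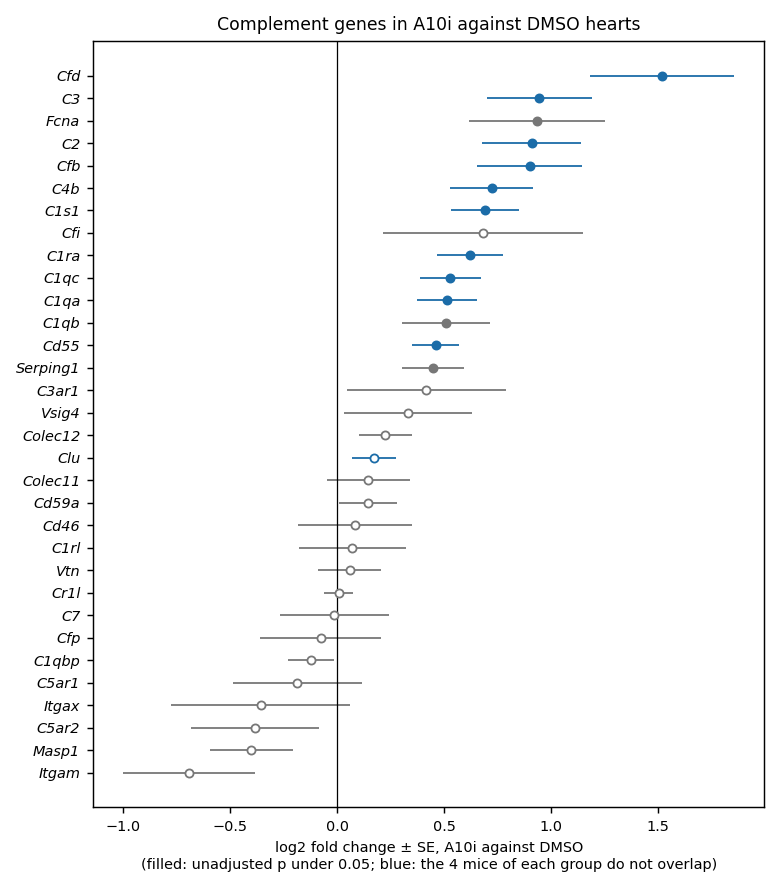
log2 fold change of A10i against DMSO (± SE) of the 32 complement genes tested, ordered by size. Filled symbols have an unadjusted p under 0.05, blue symbols mark genes whose 4 A10i mice all lie above the 4 DMSO mice, and the largest differences are those of Cfd, C3, Fcna, C2 and Cfb.

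By class, 7 of 8 classical pathway genes were among the 13, all but C1rl, with 3 of 4 in C3 and the alternative pathway, all but Cfp. None of the 6 receptors was. Cfd differed most, with a log2 fold change of 1.52 ± 0.34 (adjusted p = 0.107 by edgeR). C1s1 was higher by 0.69 ± 0.16 (adjusted p = 0.116), Cd55 by 0.46 ± 0.11 (adjusted p = 0.119), C1ra by 0.62 ± 0.15 (adjusted p = 0.139) and C2 by 0.91 ± 0.23 (adjusted p = 0.14), each without overlap of the mice. C3 was higher by 0.95 ± 0.24 (adjusted p = 0.148), C4b by 0.72 ± 0.19 (adjusted p = 0.158) and Cfb by 0.90 ± 0.24 (adjusted p = 0.16).

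The C1q chains differed by 0.51 ± 0.14 for C1qa, 0.53 ± 0.14 for C1qc and 0.51 ± 0.20 for C1qb, with adjusted p of 0.161, 0.156 and 0.311 by edgeR. Serping1 (0.45 ± 0.15) and Fcna (0.93 ± 0.32) had adjusted p of 0.219 and 0.24, with 1 or more mice overlapping. Clu was the remaining gene without overlap, at 0.17 ± 0.10 (adjusted p = 0.505). C6 and Hc also had all A10i mice above all DMSO mice but were too low for the test, with at most 5 reads of Hc in any library.

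**Figure D4:**
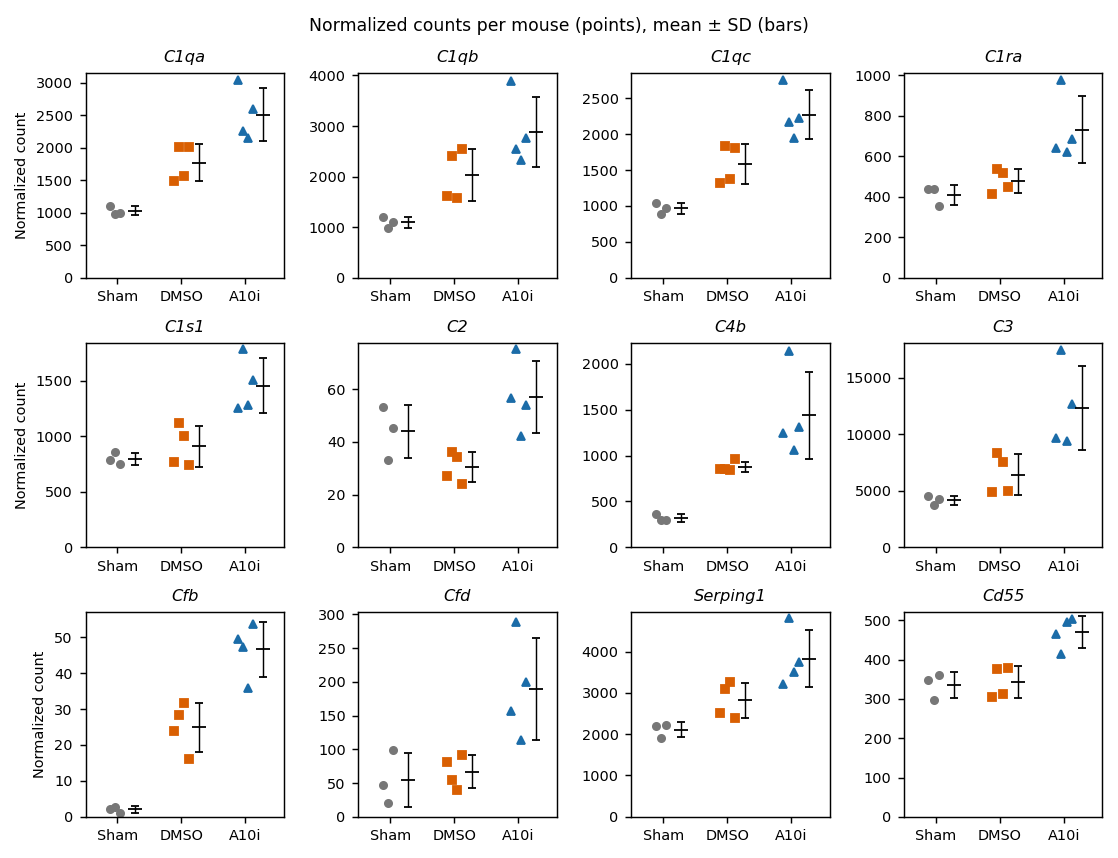
Normalized counts of 12 complement genes per mouse (points, linear axes from 0) with group mean ± SD (bars). In 10 of the 12 every A10i mouse lies above every DMSO mouse, and C1qb and Serping1 overlap.

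Leaving out each mouse in turn kept all 13 higher, and 12 of them at p under 0.05 in all 8 fits. C1qb kept it in 4 of 8 and lost it, among others, without A10i A116. Without A10i A117, the mouse with the highest C3 and Cfd, 13 of the 32 genes tested were higher at p under 0.05. The log2 fold change of C3 ranged from 0.73 to 1.10 and that of Cfd from 1.24 to 1.72 over the 8 fits.

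The genes on the lower side were led by Itgam, at -0.69 ± 0.31 (adjusted p = 0.362), and Masp1, at -0.40 ± 0.19 (adjusted p = 0.405). Neither separated the mice. The neutrophil markers, measured in the same libraries, were lower in A10i mice in 12 of 12 tested at an unadjusted p under 0.05, with a median log2 fold change of -1.74, and Cxcr2 had 168, 108, 174 and 367 in DMSO against 48.5, 53.3, 13.8 and 28.6 in A10i mice. Their part in the Itgam difference was not tested.

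Markers of other cells were set beside the complement genes. Of 5 adipocyte markers tested, 2 were higher at p under 0.05 (median log2 fold change 1.36, against 1.52 for Cfd). Adipoq had 10.02, 3.80 and 26.7 in sham, 23.8, 17.2, 5.15 and 18.0 in DMSO, and 41.4, 96.8, 14.8 and 37.8 in A10i mice, so A10i A117 was highest for both Adipoq and Cfd, while Lep was at 0 in all DMSO mice and in 3 of 4 A10i mice. The whole adipocyte list summed to 321 to 487 CPM in DMSO and 282 to 507 in A10i mice, mostly Plin4, which heart muscle also makes.

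Of 6 mesothelial markers, 5 were higher at p under 0.05 (sums of 41.6 to 65.5 and 54.0 to 112 CPM). Msln had 329, 418, 287 and 309.6 in DMSO and 357, 920.4, 427 and 748 in A10i mice, with A10i A117 and A120 highest, as for C3. The orders differed elsewhere. DMSO A128, lowest in Msln, lay above A105 and A129 in C3, and A10i A116 lay below DMSO A127 in Msln but above it in C3. Fibroblast markers had 3 of 9 higher (1993 to 6449 and 4942 to 9003 CPM), and macrophage markers had 3 of 12 higher and 1 lower (Cd14, log2 fold change -0.76 ± 0.29). Of 7 resident macrophage markers, 2 were higher at p under 0.05 (Folr2 and Cbr2, both without overlap of the mice) and 0 lower. Endothelial markers had 2 of 7 higher and 0 lower. The macrophage receptor Csf1r had 1436, 1782, 1299 and 2049 in DMSO and 2834, 1961, 1795 and 2038 in A10i mice. The part of these cells in the complement differences was not tested.

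**Figure D5:**
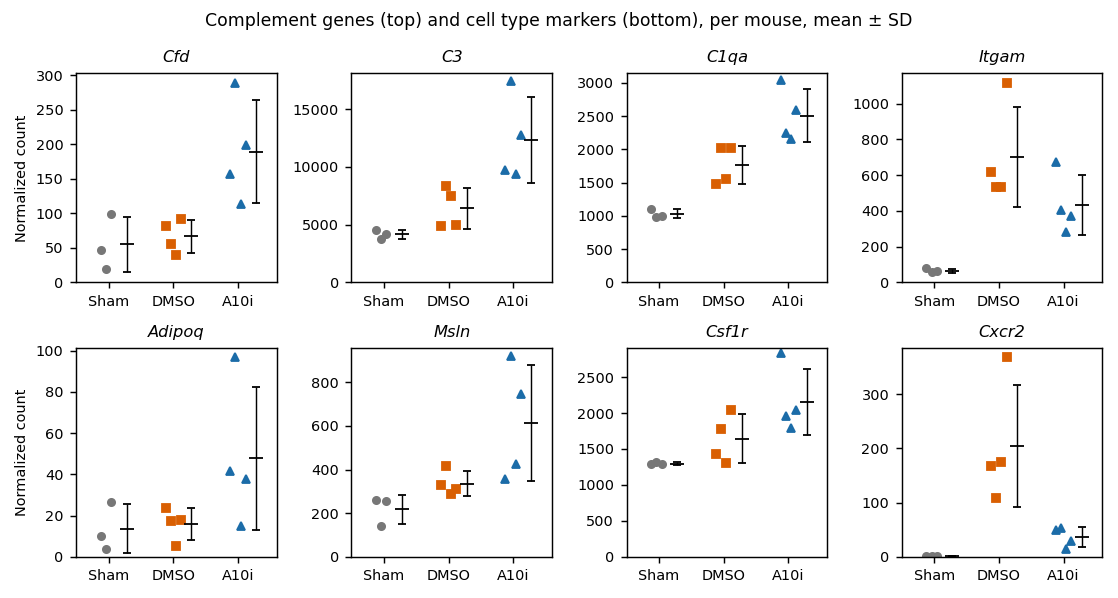
Normalized counts per mouse (points) with mean ± SD (bars) of 4 complement genes above 4 cell type markers: Adipoq for fat cells, Msln for mesothelium, Csf1r for macrophages and Cxcr2 for neutrophils. The mouse highest in Cfd and C3 is also highest in Adipoq and Msln, that highest in C1qa is highest in Csf1r, and Cxcr2 is lower in every A10i mouse than in every DMSO mouse.

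Of 28 further complement genes that were not members, 12 passed the filter in DMSO against sham, 13 in A10i against sham and 12 between A10i and DMSO. Of these 2 rose in DMSO against sham, beside 12.9% of all genes, and 4 in A10i against sham, beside 13.7%, while 0 fell, and 0 passed between A10i and DMSO. Itgb2, the beta chain shared by complement receptors 3 and 4, had 218, 201 and 209.8 in sham, 820.5, 881, 638 and 1689.5 in DMSO, and 1287, 691, 492 and 591 in A10i mice, and rose by 2.26 ± 0.33 and 1.87 ± 0.33. Ptx3, a pentraxin that binds C1q and factor H, had 14.5, 3.80 and 8.23 in sham, 346, 216, 1323 and 483 in DMSO, and 184, 144, 51.8 and 66.4 in A10i mice. It rose by 6.08 ± 0.89 and 3.69 ± 0.61, and its A10i mice all lay below its DMSO mice (-2.39 ± 0.60, adjusted p = 0.141), opposite to the C1q chains.

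Cd93 rose in A10i mice by 0.60 ± 0.14 (adjusted p = 0.00832), and so did C1s2, a near copy of C1s1 with only 10 sham reads (adjusted p = 0.00636). The ratio of summed counts of C1s2 was 4.36 (exact 95% interval 2.21 to 9.58, counting error only). C1rb, a near copy of C1ra, had 35.7, 54.1, 41.2 and 41.9 in DMSO and 62.7, 79.0, 56.1 and 66.4 in A10i mice without overlap (0.62 ± 0.19, adjusted p = 0.201). C8g, the gamma chain of the pore protein C8, had 34.5 to 47.5 in sham, 8.66 to 54.0 in DMSO and 13.1 to 25.4 in A10i mice and did not pass. C8a, C8b, C9, C4bp, Mbl1, Mbl2 and Cpb2, which encode other liver-made components, held at most 1.08 normalized counts in any heart. At that level no difference was detectable at this depth.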

How the data were processed

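RNA from 11 mouse hearts (3 Sham, 4 DMSO, 4 A10i) was poly(A)-selected and sequenced with a directional kit. The submitters' processing notes name bcl2fastq 2.20.0, GSNAP, featureCounts 2.0.1 and the mm10 build. The authors deposited raw counts per gene, unnormalized whole numbers. Each library is 1 mouse, so p-values measure the spread between mice.

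The 92 spike-in rows (14 to 55 counts per library) were left out of library sizes and tests. GENCODE M21 named 55154 of the 55421 genes. No replicate pair was near counting noise (chi-square per degree of freedom 4.04 to 60.8 over 15 pairs). Each pair of groups was fitted alone in R 4.3.3 with edgeR 4.0.16 (filterByExpr, TMM, robust quasi-likelihood F-test, two-sided, Benjamini-Hochberg, called at adjusted p under 0.01) and tested on simulated data. Normalized counts are CPM on TMM-scaled libraries times the mean scaled library of 25573579 counts. Levels per length divide CPM by the kilobases of counted exon. Alternatives were DESeq2 1.42.0, limma-voom (limma 3.58.1), other scalings and filters, a joint fit, a threshold of 0.05 and leaving out each mouse.

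The members and lists were chosen with earlier results of these data known. Values in every mouse are given for members called in any comparison and for the 5 with the smallest p in A10i against DMSO. C1r and C1s of the text are the genes C1ra and C1s1.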

Additional observations from a re-analysis of the deposited data

Results flagged for a closer look

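In the DMSO group, A129 stood apart from the other 3 mice by Dixon's test for C4b (962 normalized counts), C5ar1 (879.7) and Itgam (1117). These are 3 of 69 tests over complement genes in groups of 4 mice, and chance flags about 1 in 20. The spike-in rows, which no comparison used, held up to 55 counts in a library. Alb, a defining liver gene, was at 0 in 10 of 11 libraries and at 47.6 normalized counts in DMSO A105.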

How the results depend on the processing

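Leaving out 1 sham heart moved the counts against sham most. In DMSO against sham 6 to 14 complement genes rose over the 7 fits that leave out a mouse (6 without S2, 7 without S1 or S3) and 1 to 2 fell (1 without S1 or S2). In A10i against sham 12 to 25 rose (12 without S1) and 1 to 2 fell (1 without any 1 sham heart). Fits with 2 sham hearts also called fewer genes overall. In A10i against DMSO 3 genes rose by DESeq2 (Cfd, C3 and C1s1) and 0 in every other setting. At an unadjusted p under 0.05, 12 to 16 genes were higher over all settings, and 1 was lower by DESeq2, limma-voom, DESeq2's size factors or library size alone, 2 in the joint fit and 0 to 2 without 1 mouse. The log2 fold change of Cd55 in DMSO against sham, 0.02, ranged from -0.0590 to 0.0776 when 1 mouse was left out. Calls that held in all 15 alternatives were 6 of 17 in DMSO against sham (C4b, C5ar1, Masp1, Colec11, Clu and Itgam) and 11 of 23 in A10i against sham (C1qa, C1qb, C1qc, C1s1, C3, C4b, Serping1, Masp1, Clu, Vtn and Itgam). Cfb in both comparisons, and Cfi in A10i against sham, were called in 14 alternatives and not tested in 1, so they lost no call. Library size alone shifted the median gene by 0.21 in DMSO and 0.18 in A10i against sham (log2). Exon lengths of GENCODE M21 equalled those of the table for all 35 genes. No paired analysis was possible because the groups share no replicate numbers. Cfb, Cfi, C6 and Hc are limited by depth in sham hearts.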
